A study of Mus musculus with 4 samples.

Results

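The genes described here encode the oncostatin M receptor, the shared receptor chain gp130 and the proteins that carry their signal. The 10 genes are the ligand gene Osm, the receptor genes Osmr, Lifr, Il6st, Il6ra and Il11ra1, the kinase genes Jak1 and Jak2, the transcription factor gene Stat3 and the inhibitor gene Socs3. They were chosen by their place in one receptor family and its downstream path, with the lower RMA value of Osmr in the 2 Ctcfl arrays than in the 2 control arrays already known, and each gene is represented by its brightest probe set. Of these 10 genes, 9 were measured among 19938 named genes. Il11ra1, which binds interleukin 11, had no probe set under its symbol in the platform annotation and was not analysed here.

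Most cytokines of the interleukin 6 family signal through receptor complexes that contain gp130, the product of Il6st; interleukin 31, which uses OSMR with another partner, does not. Binding of a ligand brings gp130 together with a partner chain, JAK kinases held at the receptor tails become active, and STAT3 is phosphorylated and enters the nucleus. SOCS3, which is itself induced by STAT3, binds gp130 and the kinases and shuts the signal off. Fibroblasts are a classic target of oncostatin M, which is made mainly by activated macrophages, neutrophils and T cells and changes their production of matrix, protease inhibitors and chemokines.

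The samples came from 1 stable clone of NIH3T3, an established mouse fibroblast line, that carried the vectors pBI-EGFP-FLAG-mCtcfl and pTA-N in both groups. The 2 Ctcfl samples were kept for 48 h without doxycycline, which switches on the FLAG-tagged mouse gene for CTCFL (BORIS), a germ-line relative of the insulator protein CTCF. The 2 control samples had 2 µg/ml doxycycline, which is meant to repress the transgene, so induction and absence of the drug cannot be told apart. RNA of each sample was hybridised to 1 Affymetrix array, and nothing in the labels says that replicates were grown separately, so errors and p-values reflect only the spread between these arrays.

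All values are log2 RMA expression values, and differences are Ctcfl minus control on that scale. The quartiles of all probe sets were alike on the 4 arrays, with a lower quartile of 4.09 to 4.12, a median of 5.20 to 5.24 and an upper quartile of 7.40 to 7.43. RMA brings arrays to a common distribution, so this likeness says nothing about array quality. Ctcfl itself read 10.37 and 10.35 in the Ctcfl arrays, against 7.77 and 7.71 in the control arrays. The control values lay above the upper quartile, and whether they include transcript of the transgene was not tested. All 9 fibroblast markers examined lay above the array median. Both Ctcfl arrays were lower than both control arrays for 6 of them, against 20.6% of all genes. Their differences were -0.91 for Dcn (adjusted p = 0.0657 by limma), -0.56 for Pdgfrb, -0.38 for Col3a1, -0.29 for Pdgfra, -0.18 for Fn1 and -0.055 for Vim. Col1a1 was higher in both Ctcfl arrays (0.065), and Col1a2 and Thy1 overlapped. The mean of the 9 was 9.75 and 9.71 in the Ctcfl arrays, against 9.99 and 9.99 in the control arrays, and none of the 9 passed an adjusted p of 0.05 by limma. Macrophage markers, 7 of 7 measured, averaged 4.82 and 4.83 in the Ctcfl arrays and 4.79 and 4.88 in the control arrays. Of these, 3 had a mean above the array median: Cd68 (6.11 to 6.39), Cd14 (5.88 to 6.32) and Csf1r (5.20 to 5.59). The macrophage receptor gene Adgre1 read 3.82 to 3.99. Csf1r was lower in both Ctcfl arrays (-0.225), and the groups overlapped for the other macrophage markers. The means of the measured T cell, epithelial, endothelial, muscle and adipocyte markers lay between 3.92 and 5.61. Among them, the epithelial marker Krt8 read 6.46 and 6.41 in the Ctcfl arrays, against 6.06 and 5.66 in the control arrays. Its difference was 0.575 (adjusted p = 0.3125 by limma). Of the 6 epithelial markers, 2 were higher and 1 was lower in both Ctcfl arrays, and 3 overlapped. In bulk RNA, fewer cells with a transcript and less of it per cell give the same reading, and any part of the lower fibroblast marker mean in the results below was not tested.

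Within the receptor system the largest differences ran in opposite directions. The partner chains Osmr and Lifr had lower values in the Ctcfl arrays, the kinase gene Jak2 had higher values, and Il6st, Il6ra, Jak1, Stat3, Socs3 and Osm differed by less than 1.2-fold. None of the 9 measured genes passed an adjusted p of 0.05 in the limma fit over all genes, where 0.0451% of genes did. At an unadjusted p under 0.05 there were 3 of the 9, Jak2 higher and Osmr and Lifr lower, against 10.7% of all genes (5.36% higher and 5.32% lower). A difference of at least 1.5-fold was measured for 2 of the 9, against 0.441% of all genes. The arrays of the groups did not overlap for 5 of the 9, 2 higher and 3 lower, against 41.1% of all genes (20.6% in each direction). Because the genes were picked with this contrast known, these counts describe them and test nothing. The median difference was -0.055 over the 9 genes and 0 over all genes.

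**Figure D1:**
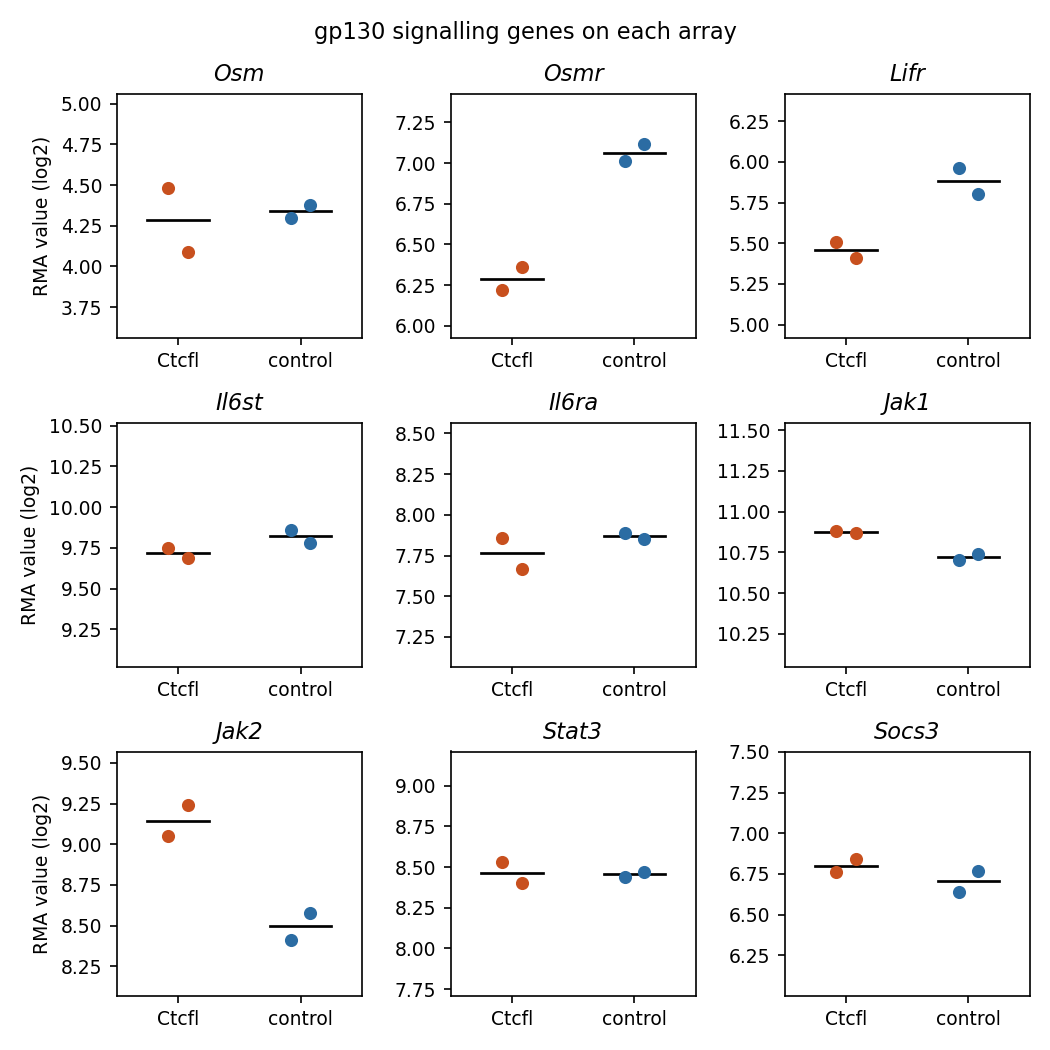
RMA values (log2, y axis) of the 9 measured genes on each array, with the 2 Ctcfl arrays in orange, the 2 control arrays in blue and the group mean as a black line; each panel spans the same 1.5 log2 units. Osmr and Lifr lie lower and Jak2 higher in both Ctcfl arrays than in both control arrays, while the arrays of Stat3, Socs3, Il6ra and Osm overlap.

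The ligand gene Osm was dim. Its probe set read 4.48 and 4.09 in the Ctcfl arrays, against 4.30 and 4.38 in the control arrays. All 4 values lay close to the lower quartile of the arrays, the control values fell between those of the Ctcfl arrays, and no detection call was used that could separate them from background. The difference was -0.055 with an SE of 0.14, and its sign changed to 0.14 without Ctcfl replicate 2.

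Osmr encodes the chain that joins gp130 in the main receptor of oncostatin M in mice, and it also serves the interleukin 31 receptor. Its values were 6.22 and 6.36 in the Ctcfl arrays, against 7.01 and 7.12 in the control arrays. Both Ctcfl arrays were lower than both control arrays, with 0.65 between the nearest arrays of the groups. The group means were 6.29 ± 0.10 and 7.07 ± 0.08 (SD, n = 2 each), and the difference of -0.775 (SE 0.10) equals a 1.71-fold lower value in the Ctcfl arrays. Of all 19938 genes, 11 had a lower difference than Osmr.

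Lifr encodes the chain that joins gp130 in the receptor of leukaemia inhibitory factor and also takes part in the receptors of cardiotrophin 1 and ciliary neurotrophic factor. It read 5.51 and 5.41 in the Ctcfl arrays, against 5.96 and 5.80 in the control arrays. The groups were again separate, by 0.29, at a level not far above the array median. The means were 5.46 ± 0.07 in the Ctcfl arrays and 5.88 ± 0.11 in the control arrays (SD, n = 2 each). This is a difference of -0.42 (SE 0.10), or 1.34-fold lower, and 155 genes had a lower one.

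Il6st, the gene of gp130 itself, had 9.75 and 9.69 in the Ctcfl arrays, against 9.86 and 9.78 in the control arrays. The arrays did not overlap, but the nearest ones were only 0.03 apart. Its difference of -0.10 had a 95% interval of -0.31 to 0.11.

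Il6ra encodes the chain that binds interleukin 6 and leaves signalling to gp130. Its values were 7.86 and 7.67 in the Ctcfl arrays, against 7.89 and 7.85 in the control arrays, and the groups overlapped. The difference was -0.105 with a 95% interval of -0.34 to 0.13. It stood at -0.01 without Ctcfl replicate 2, the array with the lowest value.

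Of the kinases, JAK1 is the one on which gp130 signalling depends most. Jak1 read 10.88 and 10.87 in the Ctcfl arrays, against 10.70 and 10.74 in the control arrays. The Ctcfl arrays were higher by a narrow margin of 0.13, and replicates lay within 0.04 of each other. The difference was 0.155 (SE 0.08, moderated over all genes and so not the spread of these replicates alone) with a 95% interval of -0.05 to 0.36.

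Jak2 also associates with gp130 and is the main kinase of several other cytokine and hormone receptors. It had 9.05 and 9.24 in the Ctcfl arrays, against 8.41 and 8.58 in the control arrays. Both Ctcfl arrays were higher than both control arrays, and the nearest arrays differed by 0.47. The means were 9.14 ± 0.13 and 8.50 ± 0.12 (SD, n = 2 each), a difference of 0.65 (SE 0.11) or 1.57-fold higher, and 28 genes had a higher difference.

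The transcription factor gene Stat3 read 8.53 and 8.40 in the Ctcfl arrays, against 8.44 and 8.47 in the control arrays. The control values fell between the Ctcfl values. The difference was 0.01 with a 95% interval of -0.21 to 0.23, which leaves room for changes of that size in either direction.

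Socs3 encodes the feedback inhibitor of gp130 and had 2 probe sets. The brighter one read 6.76 and 6.84 in the Ctcfl arrays, against 6.64 and 6.77 in the control arrays. These groups overlapped by 0.01, and the difference was 0.095 with a 95% interval of -0.13 to 0.32. The dimmer probe set read 5.29 and 5.54 in the Ctcfl arrays, against 5.46 and 5.0 in the control arrays, with a difference of 0.185 and overlapping groups. Neither probe set of this STAT3-responsive gene separated the groups.

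**Figure D2:**
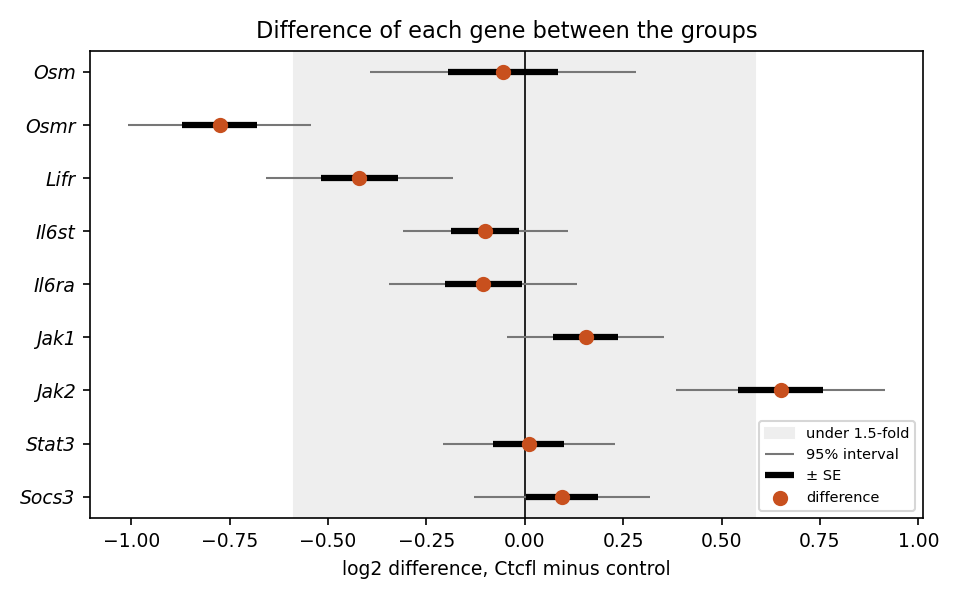
Difference of each measured gene (Ctcfl minus control, log2, x axis) with its SE as a thick line and its 95% interval from limma as a thin line; the grey band covers differences under 1.5-fold. Osmr (-0.775) and Jak2 (0.65) lie outside the band, Lifr (-0.42) lies inside it with an interval that does not reach 0, and the intervals of the other 6 genes include 0. The intervals are not adjusted for the number of genes. The adjusted p by limma was 0.1149 for Osmr, 0.1831 for Jak2 and 0.2977 for Lifr.

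Promoter sequences from RefSeq (GRCm38.p6) were found for 9 of the 10 genes, in 11 windows of 300 bases that run from 250 before to 50 after a transcription start. The windows of Osmr, Lifr and Jak2 are printed because these genes had the largest differences, and that of Socs3 because it holds the one STAT-type match. The windows were searched on both strands for the GAS element bound by STATs (TTCNNNGAA, which reads the same on both strands) and for the Sp1 GC box (GGGCGG). Of all 32851 promoter windows, 8.3% held the GAS element and 35.7% the GC box. Matches are in capitals, none of those printed overlaps another, and bases are counted from 1 at the 5′ end of the window.
Osmr, chr15:6874264-6874563, minus strand: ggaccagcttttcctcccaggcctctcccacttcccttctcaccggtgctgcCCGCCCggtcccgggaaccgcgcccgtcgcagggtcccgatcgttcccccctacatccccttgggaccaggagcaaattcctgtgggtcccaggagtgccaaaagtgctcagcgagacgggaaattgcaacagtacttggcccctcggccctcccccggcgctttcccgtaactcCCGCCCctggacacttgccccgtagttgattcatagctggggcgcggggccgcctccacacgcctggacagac
Lifr, chr15:7129322-7129621, plus strand: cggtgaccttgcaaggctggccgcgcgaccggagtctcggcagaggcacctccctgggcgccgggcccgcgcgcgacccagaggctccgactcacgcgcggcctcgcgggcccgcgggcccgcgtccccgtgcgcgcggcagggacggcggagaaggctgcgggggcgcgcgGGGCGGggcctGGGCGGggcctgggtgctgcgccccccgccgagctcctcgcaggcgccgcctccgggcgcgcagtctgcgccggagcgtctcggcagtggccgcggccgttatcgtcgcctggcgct
Jak2, chr19:29251553-29251852, plus strand: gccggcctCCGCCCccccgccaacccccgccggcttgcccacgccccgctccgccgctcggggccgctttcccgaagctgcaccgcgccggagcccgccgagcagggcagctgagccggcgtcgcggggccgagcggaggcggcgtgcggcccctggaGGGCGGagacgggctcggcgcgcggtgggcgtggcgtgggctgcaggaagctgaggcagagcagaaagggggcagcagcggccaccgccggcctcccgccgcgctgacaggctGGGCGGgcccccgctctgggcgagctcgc
Socs3, chr11:117969317-117969616, minus strand: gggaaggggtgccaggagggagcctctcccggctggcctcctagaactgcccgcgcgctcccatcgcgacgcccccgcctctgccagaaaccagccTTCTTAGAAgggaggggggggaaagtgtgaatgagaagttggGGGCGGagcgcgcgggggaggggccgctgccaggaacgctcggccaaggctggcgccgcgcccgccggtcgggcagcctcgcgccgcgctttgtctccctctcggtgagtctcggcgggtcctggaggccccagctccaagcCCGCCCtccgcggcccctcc

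The Osmr window held 2 GC boxes, at bases 53 to 58 and 228 to 233, and no GAS match. In the Lifr window there were also 2 GC boxes, at bases 173 to 178 and 184 to 189. A second start of Lifr, with its own window, held neither motif. Neither window covers the start of the RefSeq gene record of Lifr, at base 7090610 of chromosome 15. Jak2 had 3 GC boxes and no GAS match. The Socs3 window had a GAS match at bases 97 to 105 and 2 GC boxes. Base composition differed, with 66.0% G and C for Osmr, 81.3% for Lifr, 81.0% for Jak2 and 73.3% for Socs3. None of the windows that are not printed held a GAS match. Several of them held GC boxes too: 3 for Il6st, 1 for Jak1, 1 for Stat3 and 1 in each Il11ra1 window, but 0 for Il6ra. GC boxes were thus not particular to the genes with the largest differences. A match is a run of letters and not a measured binding site, and no binding data were used.

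Osmr and Lifr are neighbours on mouse chromosome 15, with no other measured gene between them. The 5 nearest measured genes on each side of Osmr, which include Lifr, did not share its direction as a block. Rictor, the gene next to Osmr on its other side, encodes a subunit of the kinase complex mTORC2 and read 8.55 and 8.58 in the Ctcfl arrays, against 8.43 and 8.32 in the control arrays, a difference of 0.19 (limma adjusted p = 0.504). The complement gene C9 had 0.285 (adjusted p = 0.399) at values of 3.46 to 3.85, under the lower quartile of the arrays. Dab2, an endocytic adaptor, had 0.145 and the haematopoietic adaptor gene Fyb had -0.07. Ptger4, which encodes the prostaglandin E2 receptor EP4, read 6.99 and 6.80 in the Ctcfl arrays, against 7.32 and 7.30 in the control arrays, a difference of -0.415 (adjusted p = 0.30). Beyond Lifr, Egflam had 0.12, the neurotrophic factor gene Gdnf had 0.215 (adjusted p = 0.444), Wdr70 had 0.09 and the nuclear pore gene Nup155 had 0.05. None of these neighbours passed by limma over all genes. Among the 5 on each side of Osmr, Lifr, Ptger4, C9 and Gdnf had an unadjusted p under 0.05, against 10.7% of all genes.

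**Figure D3:**
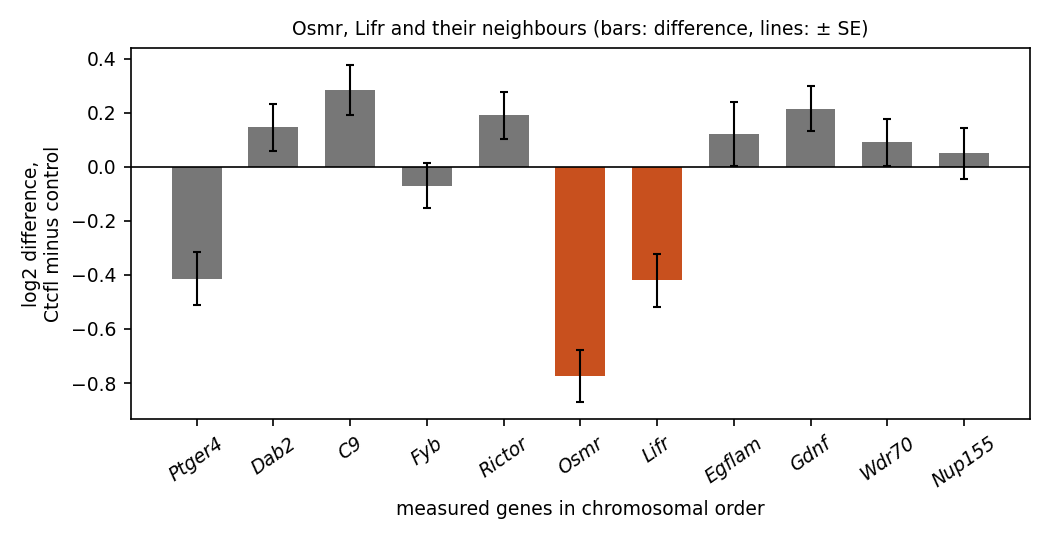
Differences (Ctcfl minus control, log2, y axis) of Osmr, Lifr and the nearest measured genes in their order along mouse chromosome 15, with the SE as a line on each bar; Osmr and Lifr are in orange. Osmr (-0.775), Lifr (-0.42) and Ptger4 (-0.415) lie below 0, while Rictor (0.19) and Gdnf (0.215) lie above it.

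Other ligands of the family were mostly dim and, apart from Il11, differed little between the groups. Of 11 listed genes 9 were measured, 0 passed over all genes, and 1 had an unadjusted p under 0.05 by limma, against 10.7% of all genes. Their median difference was -0.11, against 0 over all genes, with 7 values below 0 and 2 above. The gene of interleukin 11, Il11, which acts through Il11ra1 and gp130 and can be produced by fibroblasts, had the lowest difference. It read 5.68 and 5.52 in the Ctcfl arrays, against 6.02 and 6.14 in the control arrays, and the groups were separate. The difference was -0.48 (SE 0.10, adjusted p = 0.259). Clcf1, a ligand of the ciliary neurotrophic factor receptor, had -0.14 (adjusted p = 0.585) and the cardiotrophin gene Ctf1 had -0.12 (adjusted p = 0.644), both with separate groups. Il6 read 3.08 and 2.90 in the Ctcfl arrays, against 3.07 and 3.25 in the control arrays, under the lower quartile of every array. Lif, the ligand of the LIFR and gp130 pair, had a difference of 0.005 with values of 5.27 to 5.37. The probe set of Cntf carried more than 1 symbol and was not used.

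Among other receptors of the gp130 type, 5 of 6 were measured and 0 passed over all genes or at an unadjusted p under 0.05 by limma, against 10.7% of all genes. Il27ra, which pairs with gp130 for interleukin 27, read 5.04 and 5.21 in the Ctcfl arrays, against 4.93 and 4.98 in the control arrays, a difference of 0.17 (adjusted p = 0.565) that was 0.085 without Ctcfl replicate 2 and 0.255 without Ctcfl replicate 1. Lepr, the leptin receptor gene, had 0.14 (adjusted p = 0.585). Il31ra, whose product pairs with OSMR, read 3.77 and 3.69 in the Ctcfl arrays, against 3.83 and 3.86 in the control arrays, a difference of -0.115 (adjusted p = 0.66). The granulocyte colony-stimulating factor receptor gene Csf3r had 0.17, but -0.025 without Ctcfl replicate 2. All 5 read below 5.3 on every array.

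Of 28 other JAK-STAT transducers and inhibitors 26 were measured, and 0 passed over all genes. At an unadjusted p under 0.05 there were 2 of 26, both higher in the Ctcfl arrays, against 10.7% of all genes (5.36% higher), and the median difference was 0.025. Both Ctcfl arrays were higher than both control arrays for 10 of the 26 and lower for 4, against 20.6% of all genes in each direction. The remaining JAK measured, Tyk2, read 5.90 and 5.99 in the Ctcfl arrays, against 5.78 and 5.46 in the control arrays. Its difference was 0.325 (SE 0.12, adjusted p = 0.444), and it was 0.165 without control replicate 2 and 0.485 without control replicate 1. Gab1, a docking protein that links gp130 to the MAP kinase and PI3 kinase branches, had 7.20 and 7.12 in the Ctcfl arrays, against 6.90 and 6.86 in the control arrays, a difference of 0.28 (SE 0.09, adjusted p = 0.383). Pias1, a SUMO ligase that restrains STAT proteins, had 0.20 (adjusted p = 0.517), but 0.11 without Ctcfl replicate 2. Socs2, an inhibitor of growth hormone signalling, had -0.18 (adjusted p = 0.576), but -0.085 without Ctcfl replicate 2 and -0.275 without Ctcfl replicate 1. The Socs2 difference was -0.095 as the mean of its probe sets and -0.115 when control replicate 2 was left out. Ptpn11, the gene of the phosphatase SHP2 that competes with SOCS3 for gp130, had 0.06. Socs1, an inhibitor of JAK kinases, had the lowest difference of the list, -0.24, with overlapping groups (6.68 and 6.19 in the Ctcfl arrays, 6.52 and 6.83 in the control arrays). Both Stat5a (0) and Stat5b (0.095) lay near 0. Jak3 had no probe set with 1 symbol and was not analysed here.

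All 31 genes listed as inducible by STAT3 were measured, 0 passed over all genes, and 4 had an unadjusted p under 0.05 by limma, 1 higher and 3 lower, against 10.7% of all genes (5.36% higher and 5.32% lower). The median difference was -0.05, with 20 values below 0 and 11 above. Groups did not overlap for 11 of the 31, 2 higher and 9 lower, against 41.1% of all genes (20.6% in each direction). The kinase gene Pim1 read 8.29 and 8.26 in the Ctcfl arrays, against 7.81 and 7.85 in the control arrays, and these groups were clearly separate. Its difference was 0.445 (SE 0.08, adjusted p = 0.224). Ccl2, the monocyte chemokine gene that oncostatin M induces in fibroblasts, had 8.11 and 8.08 in the Ctcfl arrays, against 8.55 and 8.45 in the control arrays, a difference of -0.405 (SE 0.09, adjusted p = 0.266). The angiogenic factor gene Vegfa had -0.385 (SE 0.09, adjusted p = 0.288) and Nnmt, which methylates nicotinamide, had -0.215 (adjusted p = 0.457). The other 6 genes with both Ctcfl arrays lower had differences of -0.215 for Ier3, -0.17 for Pim3, -0.155 for Bcl6, -0.14 for Twist1, -0.135 for Ccnd1 and -0.085 for Cebpd. Groups overlapped for 20 genes, among them Bcl3 (0.03), Junb (-0.13), Myc (-0.085) and Timp1 (0.075), the protease inhibitor gene that oncostatin M induces in fibroblasts. The acute phase genes Lcn2, Saa3 and Hp were dim, with differences of -0.015 for Lcn2, 0.03 for Saa3 and 0.08 for Hp. Lbp, another acute phase gene of the list, was brighter. Its mean was 7.095 in the Ctcfl arrays and 7.08 in the control arrays, a difference of 0.015 with overlapping groups.

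**Figure D4:**
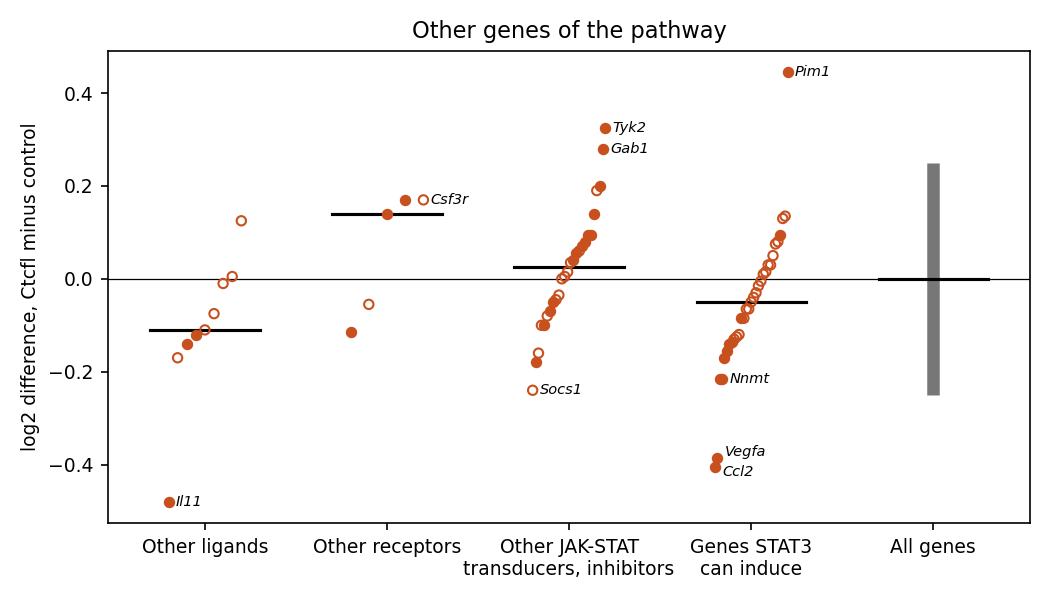
Differences (Ctcfl minus control, log2, y axis) of the measured genes in 4 lists of other pathway genes; filled points have separate groups, open points have overlapping groups, black lines are medians, and the grey bar spans the 5th to 95th percentile of all genes (-0.25 to 0.25). Il11, Pim1, Tyk2, Gab1, Ccl2 and Vegfa lie outside that bar, and the list medians lie between -0.11 and 0.14.

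The 5 named genes with array patterns most like that of Osmr were found by the smallest Euclidean distance between log2 values after subtraction of each gene's mean over the 4 arrays. Closest was Gria1, an AMPA receptor subunit gene, at a distance of 0.0433, with 4.67 and 4.75 in the Ctcfl arrays, against 5.42 and 5.54 in the control arrays. Next were the orphan receptor gene Gpr149 (0.111), the matrix protein gene Spon2 (0.144), the cystathionine gamma-lyase gene Cth (0.162) and the cholecystokinin gene Cck (0.173). With only 4 arrays, such a match reflects mainly a similar difference between the groups, which ran from -0.885 for Cck to -0.635 for Cth.

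With an array left out, the difference was -0.845 to -0.705 for Osmr, -0.50 to -0.34 for Lifr and 0.555 to 0.745 for Jak2. The groups of these genes, and of Jak1 and Il6st, did not overlap, so leaving out an array could not change their sign. Stat3, whose groups overlapped, ranged from -0.055 to 0.075 and Osm, also overlapping, from -0.25 to 0.14. With variances that follow the intensity trend and are estimated robustly, limma gave adjusted p-values under 0.05 to Osmr and Jak2, in a fit that called 479 genes in place of 9.

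**Figure D5:**
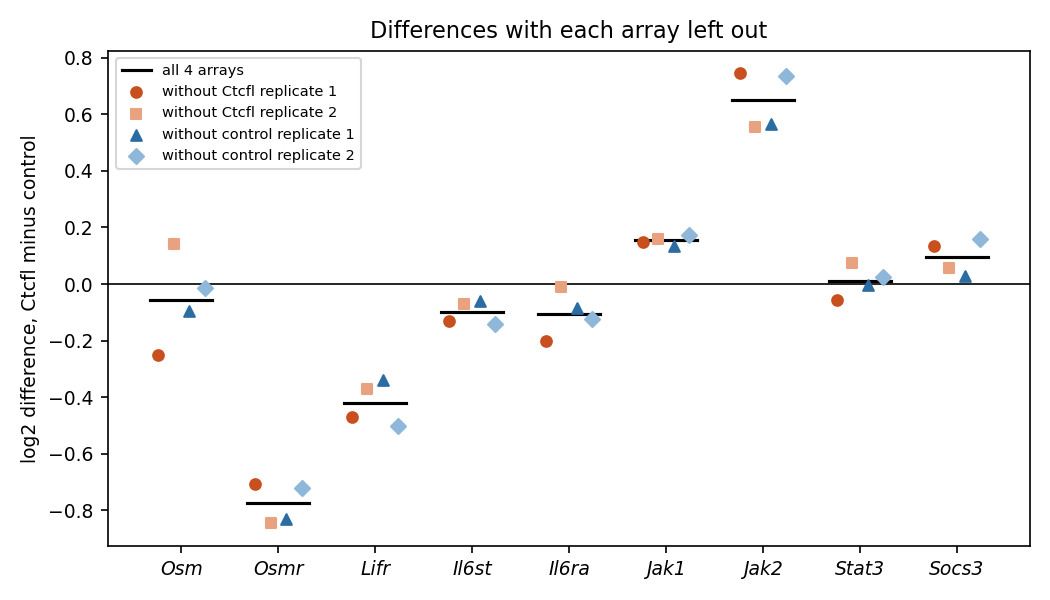
Differences (Ctcfl minus control, log2, y axis) of the 9 measured genes over all 4 arrays (black lines) and with each array left out (symbols). Osm and Stat3, whose groups overlap, change sign. Osmr and Lifr stay below 0 and Jak2 above 0 in all 4 cases, which is fixed because their groups do not overlap.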

How the data were processed

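Total RNA of 4 samples was biotin-labelled and hybridised to Affymetrix arrays. The authors deposited log2 values from RMA, run in Expression Console, per the labels; RMA corrects background, quantile-normalises arrays and summarises probes. Its version is not given in the sources used here. Of 35512 probe sets 1 had no value; 21789 had 1 gene symbol in the platform annotation of 2016, 1621 several, and 12101 are unlisted. The brightest probe set represented each of 19938 genes, and dim genes were kept.

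Differences between the groups were tested with lmFit and eBayes of limma 3.58.1 in R 4.3.3 (two-sided, 6.21 degrees of freedom, Benjamini-Hochberg over all genes, threshold 0.05). The test was tried on simulated data. The genes and lists were chosen with earlier results of these data known. Named were Ctcfl, the 10 genes, up to 4 genes per list by smallest unadjusted p, the 5 nearest measured genes on each side of Osmr and the 5 most like it. Other list genes with values were picked once these were seen. Gene order came from the RefSeq table of GRCm38.p6, which matched 19856 genes. Alternatives were quantile normalisation, median centring, a filter that removes the dimmest 33.3% of genes, means of probe sets, robust variances that follow an intensity trend (statmod 1.5.0), ordinary t statistics, all probe sets, a replicate block and each array left out. Plots were made with matplotlib 3.10.9 (Python 3.11.15).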

Additional observations from a re-analysis of the deposited data

How the results depend on the processing

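The precision is limited by 2 arrays per group and, for Osm, Il6 and other genes near the lower quartile, by the lack of detection calls. Over all genes limma called 9, but 20 without the dimmest 33.3% of genes and 479 when variances were robust and followed intensity. It called 0 with all probe sets fitted (2764 at an unadjusted p under 0.05), 0 with the replicate block (1468 unadjusted) and 0 when any array was left out (1329 to 1663 unadjusted). Ordinary t statistics, computed for the 19924 genes with some spread within groups, called 0 (1940 unadjusted). The cause of these changes was not tested. The intensity trend fit called 2 of the 9 measured genes (Osmr and Jak2), 1 other ligand (Il11) and 3 genes that STAT3 can induce (Pim1, Ccl2 and Vegfa). Under the other alternatives, 0 of the 9 genes and 0 genes of the other lists were called. The replicate numbers are shared only as numbers: across 19938 genes, replicate 1 minus replicate 2 had a correlation of -0.102 between Ctcfl and control arrays. A replicate block with crossed numbers, chosen after seeing the data, called 0 genes (2105 unadjusted).

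The median difference of the 9 genes was -0.13 to 0.055 with an array left out. The ranges for the other lists were -0.16 to -0.035 for ligands, -0.025 to 0.145 for receptors, 0.0175 to 0.06 for transducers and inhibitors, and -0.095 to -0.03 for genes that STAT3 can induce. The receptor median was 0.11 with quantile normalisation or median centring, and that of transducers and inhibitors was -0.005 with median centring. With an array left out, signs turned for Csf3r (-0.025 without Ctcfl replicate 2, up to 0.365), Egflam (-0.02 without control replicate 1, up to 0.26) and Nup155 (-0.015 without control replicate 2 and -0.005 without Ctcfl replicate 1, up to 0.115). Jak2 was under 1.5-fold higher at 0.555, its lowest value with an array left out, while Osmr stayed at least 1.5-fold lower in those fits.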

Other observations

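Jak2 was set against its own surroundings in the same way as Osmr, a choice made after its value was seen. Of the 5 nearest measured genes on each side of Jak2 on mouse chromosome 19, none passed over all genes by limma. Rcl1, a gene of ribosomal RNA processing, read 8.19 and 8.14 in the Ctcfl arrays, against 8.35 and 8.38 in the control arrays, a difference of -0.20. The immune checkpoint ligand gene Cd274 read 4.94 and 5.19 in the Ctcfl arrays, against 4.93 and 4.71 in the control arrays, a difference of 0.245 (adjusted p = 0.532). Pdcd1lg2, the second ligand gene of that checkpoint receptor, had 0.08 at values of 3.82 to 3.93. The named genes with array patterns most like that of Jak2 were Adam4 (distance 0.051), Papss2 (0.102), Nmu (0.112), Vgll3 (0.12) and Src (0.132). Src, the gene of another tyrosine kinase, read 7.81 and 7.89 in the Ctcfl arrays, against 7.24 and 7.36 in the control arrays, a difference of 0.55 (adjusted p = 0.18).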
